A study of Mus musculus with 16 samples.

Results

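The matrix metalloproteinases and their inhibitors were followed through 10 genes: the metalloproteinases Mmp2, Mmp3, Mmp9, Mmp10, Mmp13 and Mmp14, the aggrecanase Adamts5, and the tissue inhibitors Timp1, Timp2 and Timp3. They are 10 of the 18193 genes that had a probe set naming them alone on the arrays, and every such probe set was taken, 25 in all. The symbols were chosen by family and by signals of these same arrays, with results known: the changes of Mmp13 and Timp3 with MG132 in wild-type cells and of Adamts5 in knockout cells stood among the leading ones. Those 3 changes, and other differences that use the same arrays' values of these genes, are given below as levels and log2 values with no p.

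RNA was measured in mouse embryonic fibroblasts on 16 Affymetrix arrays, 4 for each of 4 groups. The groups were CHOP-/- cells (KO) exposed to 1 µM MG132 for 8 hours, CHOP-/- cells left untreated, wild-type CHOP+/+ cells (WT) exposed to the same dose and time of MG132, and wild-type cells left untreated. MG132 blocks the proteasome, and CHOP, the product of Ddit3, is a stress-induced transcription factor; the study looked for genes whose response to the inhibitor depends on it. The labels give a culture plate per array and do not say whether plates came from separate embryos or isolations, so a p-value reflects plate-to-plate spread, which may be technical. The labels name no strain, passage or immortalisation of the cells, and the untreated groups are called untreated in some labels and DMSO vehicle controls in others.

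Matrix metalloproteinases are zinc enzymes that cut collagens, proteoglycans and other proteins outside the cell. Most are secreted as inactive zymogens, and the TIMP proteins bind the active site and hold the enzyme in check. Fibroblasts make several of these enzymes and their inhibitors, and stress or inflammatory signals acting through AP-1 factors are a well known route to transcription of the collagenase and stromelysin genes.

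Array medians ran between 89.8 and 113 signal units, and arrays of a group correlated at 0.985 to 0.992 across genes. Ddit3 itself averaged 396 ± 38.9 units in KO cells with MG132 and 368 ± 24.0 in untreated KO cells, against 7724 ± 587 in WT cells with MG132 and 1017 ± 101 in untreated WT cells (SD, n = 4 arrays each). Its change with MG132 was 0.10 on the log2 scale in KO cells (SE 0.09, limma adjusted p = 0.328) and 2.91 in WT cells (SE 0.09). The KO change was called at 0.33 under quantile normalisation and at 0.24 with arrays centred on their medians. Of 10 fibroblast markers, 9 passed the filter for signal, and their summed signal lay between 97306 and 102499 in KO cells with MG132, 115762 and 129817 in untreated KO cells, 112006 and 121612 in WT cells with MG132, and 112588 and 130655 in untreated WT cells. Some single fibroblast markers differed widely between the genotypes, and others were close. Pdgfra averaged 143, 118, 2510 and 2351 units in the same order of groups, Thy1 2074, 2727, 274 and 227, and Dcn 734, 1075, 65.3 and 38.5. Vim averaged 48498, 48075, 49753 and 46535 units, and Fn1 23102, 19821, 26051 and 17439. In RNA from whole plates, fewer cells of a type and less RNA per cell cannot be told apart.

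The genes for Mmp13, Mmp3 and Mmp10 lie in one cluster of metalloproteinase genes on chromosome 9, and all 3 had their highest signals on the treated WT arrays. The 250 bases before their RefSeq start sites (mouse build GRCm38.p6, plus strand, chr9:7272264-7272513 for Mmp13, chr9:7445572-7445821 for Mmp3 and chr9:7502092-7502341 for Mmp10) are printed to show what letters they have in common. Capitals mark the AP-1 motif TGACTCA, read on either strand and therefore also as TGAGTCA, and the RUNX motif AACCACA.
Mmp13: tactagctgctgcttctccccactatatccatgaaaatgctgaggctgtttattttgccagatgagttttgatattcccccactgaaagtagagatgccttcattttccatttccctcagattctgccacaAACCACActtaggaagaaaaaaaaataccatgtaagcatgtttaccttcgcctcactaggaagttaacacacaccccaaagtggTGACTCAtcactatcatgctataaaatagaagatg
Mmp3: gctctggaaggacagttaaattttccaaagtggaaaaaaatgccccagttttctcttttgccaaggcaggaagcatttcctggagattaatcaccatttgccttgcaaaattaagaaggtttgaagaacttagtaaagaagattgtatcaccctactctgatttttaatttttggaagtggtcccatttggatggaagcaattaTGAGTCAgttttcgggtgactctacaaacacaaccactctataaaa
Mmp10: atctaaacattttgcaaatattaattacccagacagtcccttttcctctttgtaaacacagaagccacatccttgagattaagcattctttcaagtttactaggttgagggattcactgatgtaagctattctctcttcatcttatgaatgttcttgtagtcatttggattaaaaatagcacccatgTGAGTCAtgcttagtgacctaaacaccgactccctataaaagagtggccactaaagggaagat
The AP-1 letters begin 35 bases before the start of Mmp13, 46 before that of Mmp3 and 63 before that of Mmp10. The RUNX letters were found in the Mmp13 window alone among the 7 members with a window, beginning 119 bases before the start. A motif of the kind bound by C/EBP and ATF heterodimers, TGATGNAA on either strand, was found in the Mmp10 window as TGATGTAA, 133 bases before the start. None of these 3 motifs was found in the windows of Mmp14, Timp1, Timp2 and Timp3. Over all 32851 promoter windows of this length in the table, 4.46% held the AP-1 letters, 4.40% the RUNX letters and 3.45% the C/EBP and ATF letters. A match describes the letters and is not evidence of binding.

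In WT cells, MG132 was accompanied by higher signals of the collagenase Mmp13 and the stromelysins Mmp3 and Mmp10, and by a higher signal of the inhibitor Timp3. The gelatinase Mmp2, the membrane-anchored Mmp14, Adamts5 and Timp1 gave lower signals. In KO cells the stromelysins and Mmp2 did not pass the test, Mmp13 stayed under 21 units on every array, the rise of Timp3 was smaller than in WT cells, and the drop of Adamts5 was larger. "Rose", "fell" and "called" refer to an adjusted p under 0.05 in a limma fit over all 11457 genes that passed the filter, a log2 change is taken on log2(signal + 16), and a gene is represented by its brightest probe set. That constant understates the change of genes with low signals. Where groups are said not to overlap, the same held for 58.3% of all tested genes for MG132 in KO cells, 56.6% for MG132 in WT cells, 49.6% for untreated KO against WT cells and 53.3% for treated KO against WT cells. These shares are for pairs of groups. For wider separations, such as all 4 groups apart or a group apart from all others, no share over all genes is available. Those separations are descriptions.

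Mmp13, an enzyme that cleaves fibrillar collagen, gave signals of 3.33, 7.72, 2.74 and 9.99 units on the KO arrays with MG132 and 20.6, 4.00, 20.2 and 13.7 on the untreated KO arrays (probe set 1417256_at). The WT arrays gave 1655, 1878, 2228 and 1841 units with MG132 and 16.9, 40.1, 9.23 and 19.2 without. Only the 4 treated WT arrays lay above the median of their array, so the gene entered the fit through that group alone, and the other 12 arrays were all under 41 units. All differences of this gene are therefore given without a p. Its log2 change with MG132 was -0.45 in KO cells (SE 0.28) and 5.74 in WT cells (SE 0.28). The WT value was 6.58 with a constant of 1 and 4.53 with a constant of 64. The difference between both responses, KO minus WT, was -6.19 (SE 0.40). Untreated KO and WT cells differed by -0.26 (SE 0.28), with overlapping arrays, whereas KO minus WT was -6.45 with MG132 (SE 0.28).

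Mmp3, or stromelysin-1, which cuts proteoglycans and can activate other metalloproteinase zymogens, gave 84.7, 101, 86.8 and 93.8 units on the KO arrays with MG132 and 91.5, 97.1, 129 and 91.0 on the untreated KO arrays (1418945_at). In WT cells it gave 251, 220.5, 283 and 238 units with MG132 and 125, 145, 121 and 103 without. The 4 treated WT arrays stood above all others, and the KO groups overlapped each other near the array median. The change was -0.12 in KO cells (SE 0.17, limma adjusted p = 0.546), while Mmp3 rose by 0.92 in WT cells (SE 0.17, adjusted p = 7.93e-05). KO minus WT for this response was -1.05 (SE 0.24, adjusted p = 0.00263). KO against WT cells differed by -0.24 without treatment (SE 0.17, adjusted p = 0.237) and by -1.29 with MG132 (SE 0.17, adjusted p = 1.65e-06).

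Mmp10, or stromelysin-2, a close relative of Mmp3, gave 123, 21.8, 104 and 105 units on the KO arrays with MG132 and 5.08, 7.85, 82.2 and 63.8 on the untreated KO arrays (1420450_at). The WT arrays gave 438, 378, 445 and 403 units with MG132 and 60.1, 63.5, 10.5 and 66.5 without. As for Mmp3, the treated WT arrays stood above all others; the other 3 groups each had at least 1 array under 25 units. Of the treated KO arrays 3 of 4 lay above the array median, and no untreated array did, so Mmp10 passed the filter through treated arrays, and would not have passed without those of WT cells. For this reason its WT change and its KO minus WT value with MG132 are given a p only from the fit with no filter. The log2 change of Mmp10 in WT cells was 2.84 (SE 0.49, limma adjusted p = 7.37e-05 when no filter was applied). In KO cells the change was 1.07 (SE 0.49, adjusted p = 0.0654), and the difference between the responses, -1.77 (SE 0.69, adjusted p = 0.0632), did not pass the threshold. Both results depended on single arrays. The KO change passed without replicate 3 of the untreated WT group, which enters it only through the shared estimate of the spread. It also passed without replicate 3 or 4, the brighter arrays, of the untreated KO group. Without replicate 2 of the treated KO group it passed too (limma adjusted p = 0.00998). The difference passed without replicate 1 or 2 of the untreated KO group (adjusted p = 0.0247 and 0.0321). KO against WT cells differed by -0.44 without treatment (SE 0.49, adjusted p = 0.475) and by -2.21 with MG132 (SE 0.49). With no filter, the limma adjusted p of the difference with MG132 was 0.00115.

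**Figure D1:**
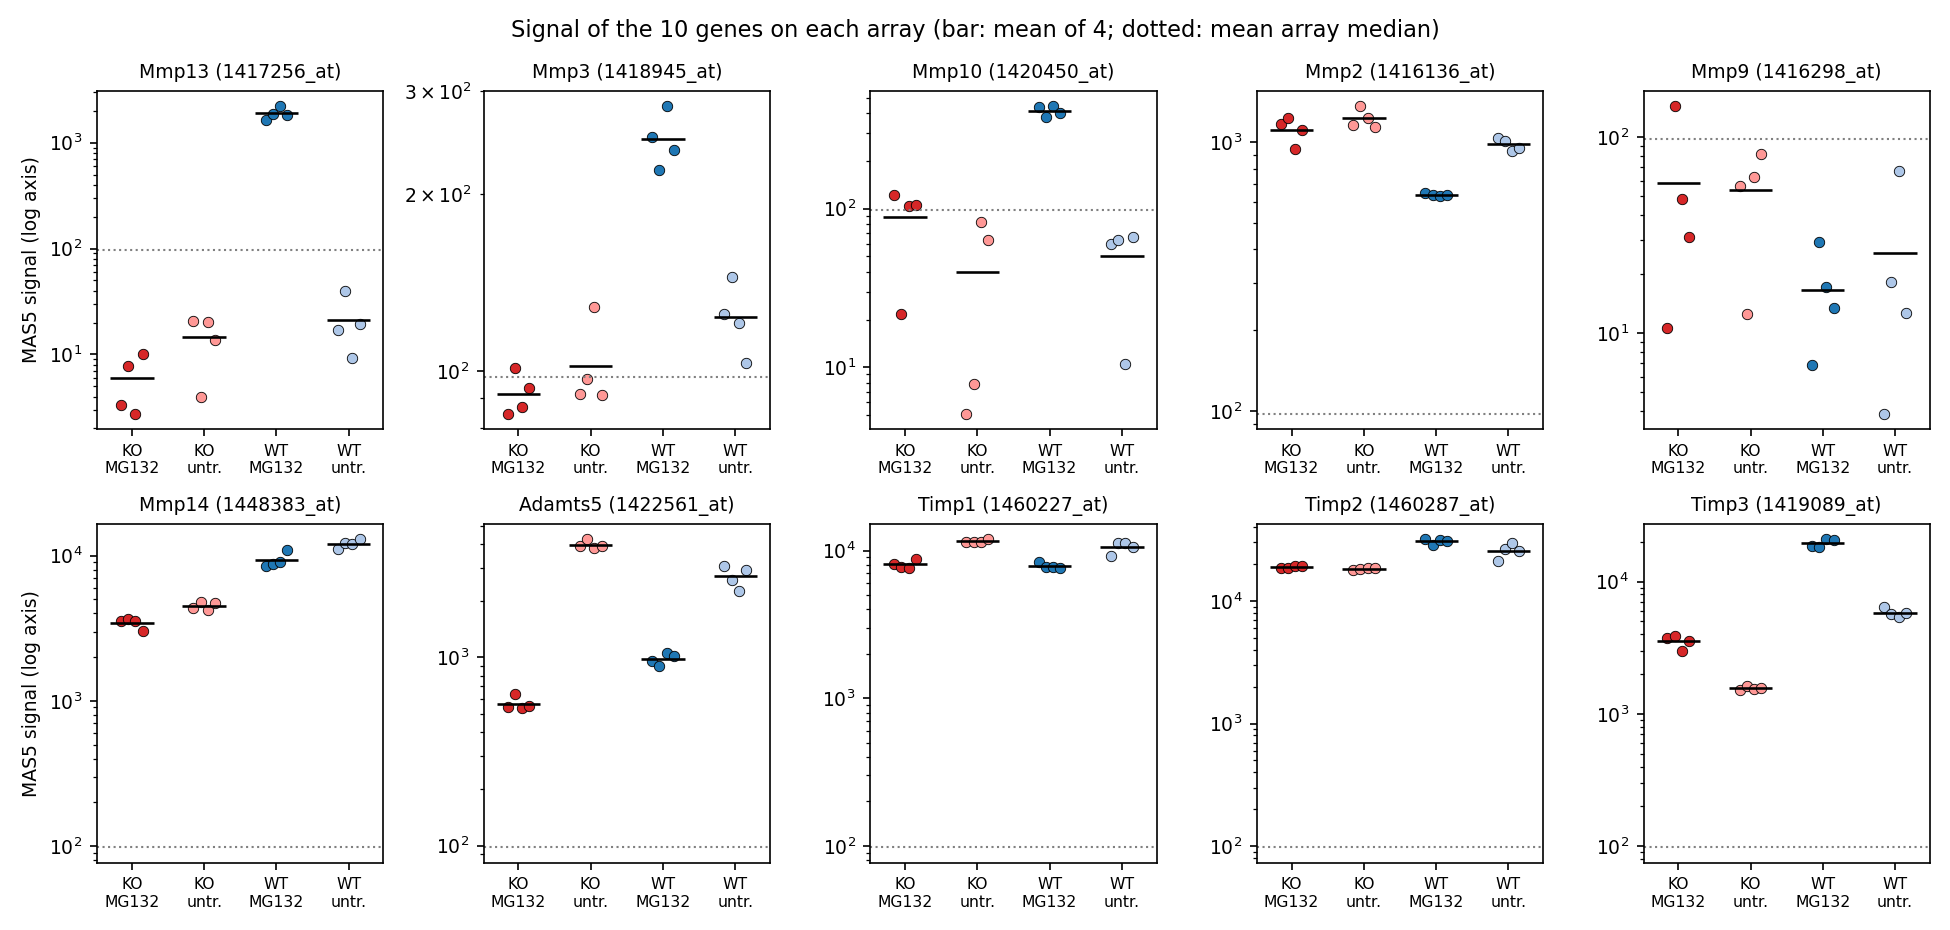
MAS5 signal (log axis) of the brightest probe set of each of the 10 genes on each array, in KO and WT cells with MG132 and untreated; each point is an array, each bar the mean of 4 arrays, and the dotted line the mean of the array medians. Mmp13, Mmp3 and Mmp10 have their highest signals on the 4 treated WT arrays, and Mmp9 lies below the dotted line on all arrays but 1. Mmp3 and Mmp10 also pass the dotted line on some other arrays, and Mmp13 does not.

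**Figure D2:**
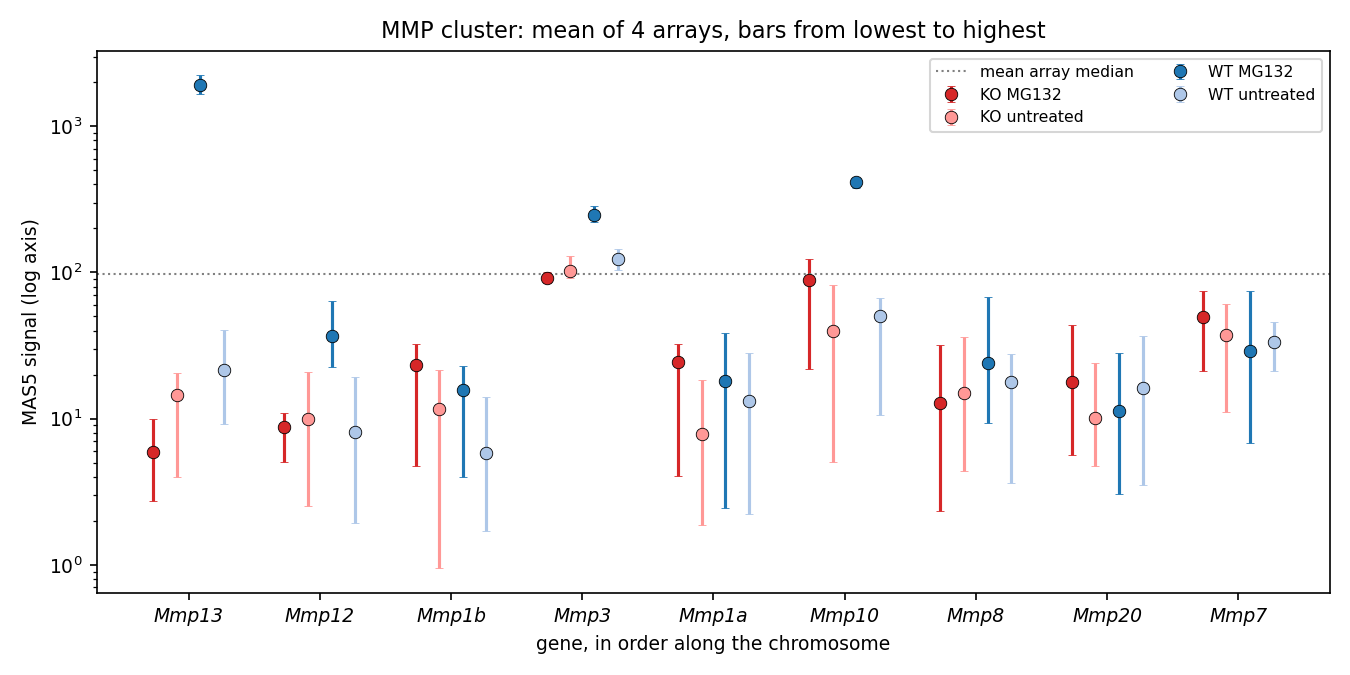
MAS5 signal (log axis) of the genes of the metalloproteinase cluster in their order along chromosome 9, by group; points are means of 4 arrays, bars run from the lowest to the highest array, and the dotted line is the mean array median. Mmp13, Mmp3 and Mmp10 reach 1655, 220.5 and 378 units or more on every treated WT array, while the genes between them stay under 70 units.

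The neighbours of these 3 genes gave much lower signals in treated WT cells, as the plot of the chromosome 9 cluster shows. Mmp12 among them also had its highest arrays in that group. RefSeq orders the cluster as Mmp13, Mmp12, Mmp1b, Mmp3, Mmp1a, Mmp10, Mmp8, Mmp27, Mmp20 and Mmp7. Of these 10 genes, 3 were tested, 6 did not pass the filter for signal and Mmp27 had no probe set of its own. Mmp12, a macrophage elastase, gave 5.08 to under 12 units in KO cells with MG132, 2.51 to 20.9 in untreated KO cells, 22.5 to 63.9 in WT cells with MG132 and 1.93 to 19.3 in untreated WT cells. Its treated WT arrays thus lay above the other 12 arrays, but all 16 stayed below their array medians. Mmp1b and Mmp1a, which lie on either side of Mmp3, reached at most 22.8 and 38.5 units with MG132 in WT cells.

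Summed signals of markers of other cell types moved in part with these genes. The summed signal of 11 macrophage and leukocyte markers ran between 719 and 813 units in KO cells with MG132, 537 and 763 in untreated KO cells, 900 and 1102 in WT cells with MG132, and 732 and 773 in untreated WT cells. Of the 11, 3 passed the filter (Cd68, Csf1r and S100a8), and 6 of the rest, including Ptprc, which encodes the leukocyte antigen CD45, were above the array median on no array. Csf1r averaged 293.5 units in KO cells with MG132, 200 in untreated KO cells, 321 in WT cells with MG132 and 230 in untreated WT cells. Cd68 averaged 121, 122, 217 and 135 units in the same order, and S100a8 55.3, 65.4, 140 and 116. Of markers that did not pass, Mpo averaged 79.9, 41.7, 49.9 and 54.4 units, and Adgre1 65.2, 74.4, 75.7 and 98.5. Osteoblast and cartilage markers, of which 3 of 8 passed, summed to 692 to 947 units in KO cells with MG132, 449 to 652 in untreated KO cells, 943 to 1179 in WT cells with MG132 and 544 to 871 in untreated WT cells. Ibsp and Alpl, markers of bone-forming cells, and the cartilage collagen gene Col2a1 were above the median on no array, whereas Sox9, a cartilage factor, gave 450 units in KO cells with MG132, 245 in untreated KO cells, 466 in WT cells with MG132 and 74.7 in untreated WT cells, and Sp7, a bone factor, 140, 106, 134 and 99.6. Sox9 was called higher with MG132 in both genotypes. The part of either cell type in the signals of Mmp13, Mmp3 and Mmp10 was not tested.

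Mmp2, a gelatinase that is activated at the cell surface by Mmp14 and Timp2 together, gave 1168, 1229, 945 and 1114 units on the KO arrays with MG132 and 1165, 1368, 1235 and 1145 on the untreated KO arrays (1416136_at). On WT arrays the signals were 651, 638, 629.8 and 639 units with MG132 and 1039.6, 1013, 931 and 958 without. The treated WT arrays lay below all others, and the treated and untreated KO arrays overlapped. Mmp2 fell by 0.61 in WT cells (SE 0.08, limma adjusted p = 1.18e-06). Its change in KO cells was -0.14 (SE 0.08, adjusted p = 0.131), a difference between genotypes of 0.47 (SE 0.11, adjusted p = 0.00382). It was higher in KO than in WT cells by 0.31 untreated (SE 0.08, adjusted p = 0.00244) and by 0.78 with MG132 (SE 0.08, adjusted p = 5.23e-08). The second probe set, 1439364_a_at, gave -0.09 in KO and -0.65 in WT cells for the MG132 response.

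Mmp9, the other gelatinase, known from macrophages, neutrophils and osteoclasts, was not tested. Its brighter probe set, 1416298_at, gave 10.6, 144, 48.1 and 30.9 units in KO cells with MG132 and 56.4, 12.5, 62.9 and 82.0 in untreated KO cells. In WT cells it gave 6.86, 29.1, 17.2 and 13.4 units with MG132 and 3.87, 18.3, 67.3 and 12.6 without. Only 1 array of 16 lay above its median, and the groups overlapped in every comparison. The second probe set, 1448291_at, stayed under 50 units on all arrays. When no filter was applied, neither probe set was called in any of the 5 comparisons (limma adjusted p from 0.142 to 0.985).

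Mmp14, the membrane-anchored collagenase that also activates the Mmp2 zymogen, gave 3521, 3637, 3536 and 3034 units on the KO arrays with MG132 and 4379.6, 4816, 4201 and 4721 on the untreated KO arrays (1448383_at). The WT arrays gave 8520.0, 8718, 8996 and 10907 units with MG132 and 11131, 12157, 12008 and 12941 without. The 4 groups did not overlap, in the order treated KO, untreated KO, treated WT and untreated WT. It fell with MG132 in both genotypes, by 0.40 in KO cells (SE 0.07, limma adjusted p = 8.65e-05) and by 0.38 in WT cells (SE 0.07, adjusted p = 0.000135). The difference between the responses was -0.02 (SE 0.10, adjusted p = 0.921). The genotypes differed by more than the treatments: KO minus WT was -1.41 untreated (SE 0.07, adjusted p = 1.73e-12) and -1.43 with MG132 (SE 0.07, adjusted p = 1.37e-12). In a fit over all 21677 probe sets past the filter, 56.3% were called for MG132 in KO cells, 58.7% in WT cells, 24.2% for the difference, 49.8% for KO against WT untreated and 54.5% with MG132. A second probe set of Mmp14, 1416572_at, gave the same calls in all 5 comparisons. The third, 1440920_at, gave -0.06 for the KO response (adjusted p = 0.709), -0.61 for the WT response and 0.55 for the difference between the responses (adjusted p = 0.0201).

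Adamts5, which cleaves the cartilage proteoglycan aggrecan and the related versican, gave 543, 638, 535 and 551 units on the KO arrays with MG132 and 3902, 4232, 3823 and 3898 on the untreated KO arrays (1422561_at). On WT arrays the signals were 954, 903, 1056 and 1015 units with MG132 and 3067, 2576, 2239 and 2916 without. None of the 4 groups overlapped: the untreated KO arrays were highest and the treated KO arrays lowest. Its log2 change with MG132 was -2.77 in KO cells (SE 0.09), and it fell by 1.44 in WT cells (SE 0.09, limma adjusted p = 1.01e-11). The responses differed by -1.34 (SE 0.12). KO minus WT was 0.56 without treatment (SE 0.09) and -0.78 with MG132 (SE 0.09). Of its other 3 probe sets, 1450658_at and 1456404_at gave -2.02 and -2.68 in KO cells and -1.19 and -1.27 in WT cells. The first of these gave 0.19 for untreated KO against WT cells, with overlapping arrays, and 1456969_at was under 19 units on all arrays.

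Timp1, a secreted inhibitor of most metalloproteinases, gave 8133, 7719, 7567 and 8773 units on the KO arrays with MG132 and 11337, 11447, 11449.6 and 11893 on the untreated KO arrays (1460227_at). In WT cells it gave 8386, 7739, 7739 and 7587 units with MG132 and 9144, 11193, 11233 and 10565 without. Treated arrays lay below untreated ones in both genotypes. It fell by 0.52 in KO cells (SE 0.06, limma adjusted p = 2.33e-07) and by 0.42 in WT cells (SE 0.06, adjusted p = 4.02e-06), with a difference between the responses of -0.10 (SE 0.09, adjusted p = 0.404). KO minus WT was 0.14 untreated (SE 0.06, adjusted p = 0.0639), although the KO arrays lay above the WT arrays, and 0.03 with MG132 (SE 0.06, adjusted p = 0.674). The untreated difference passed without replicate 2 or 3 of the untreated WT group (adjusted p = 0.0372 and 0.0300).

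Timp2, which inhibits metalloproteinases and also links Mmp14 to the Mmp2 zymogen, gave 18708, 18598, 19148 and 19425 units on the KO arrays with MG132 and 17769.8, 18183, 18572 and 18407 on the untreated KO arrays (1460287_at). The WT arrays gave 31749.7, 28444, 31293 and 30977 units with MG132 and 21236, 26292, 29444 and 25305 without. All KO arrays lay below all WT arrays. KO minus WT was -0.48 untreated (SE 0.07, limma adjusted p = 3.8e-06) and -0.69 with MG132 (SE 0.07, adjusted p = 2.17e-08). The other 4 probe sets that passed the filter were also lower in KO cells, by log2 values of -0.51 to -0.95 untreated and -0.93 to -1.07 with MG132.

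The probe sets of Timp2 disagreed on the response to MG132. The brightest gave 0.06 in KO cells (SE 0.07, limma adjusted p = 0.477) and rose by 0.27 in WT cells (SE 0.07, adjusted p = 0.00146). The other 4 gave -0.37, -0.54, -0.17 and -0.35 in KO cells, and 3 of these 4 were called lower in the fit over probe sets. In WT cells the same 4 gave 0.13, -0.13, -0.19 and 0.15, with 1433662_s_at and 1450040_at called lower (adjusted p = 0.0141 and 0.0484). No direction is therefore given for the response of Timp2 in either genotype. The sixth probe set, 1437081_at, was above the median on no array.

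Timp3, the inhibitor that stays bound to the matrix and also blocks ADAM and ADAMTS enzymes such as Adamts5, gave 3746, 3857, 2979 and 3568 units on the KO arrays with MG132 and 1507, 1628, 1531 and 1563 on the untreated KO arrays (1419089_at). On WT arrays the signals were 18755, 18327, 20882 and 20512 units with MG132 and 6453, 5687, 5444 and 5799 without. The 4 groups did not overlap, and untreated WT arrays lay above treated KO arrays. Timp3 rose by 1.17 in KO cells (SE 0.07, limma adjusted p = 1.63e-11), and the change in WT cells was 1.74 (SE 0.07), a difference between the responses of -0.58 (SE 0.10). KO minus WT was -1.90 untreated (SE 0.07) and -2.47 with MG132 (SE 0.07). Its other 3 probe sets gave 1.20, 1.07 and 1.03 for the response in KO cells and 2.33, 2.29 and 1.85 in WT cells.

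**Figure D3:**
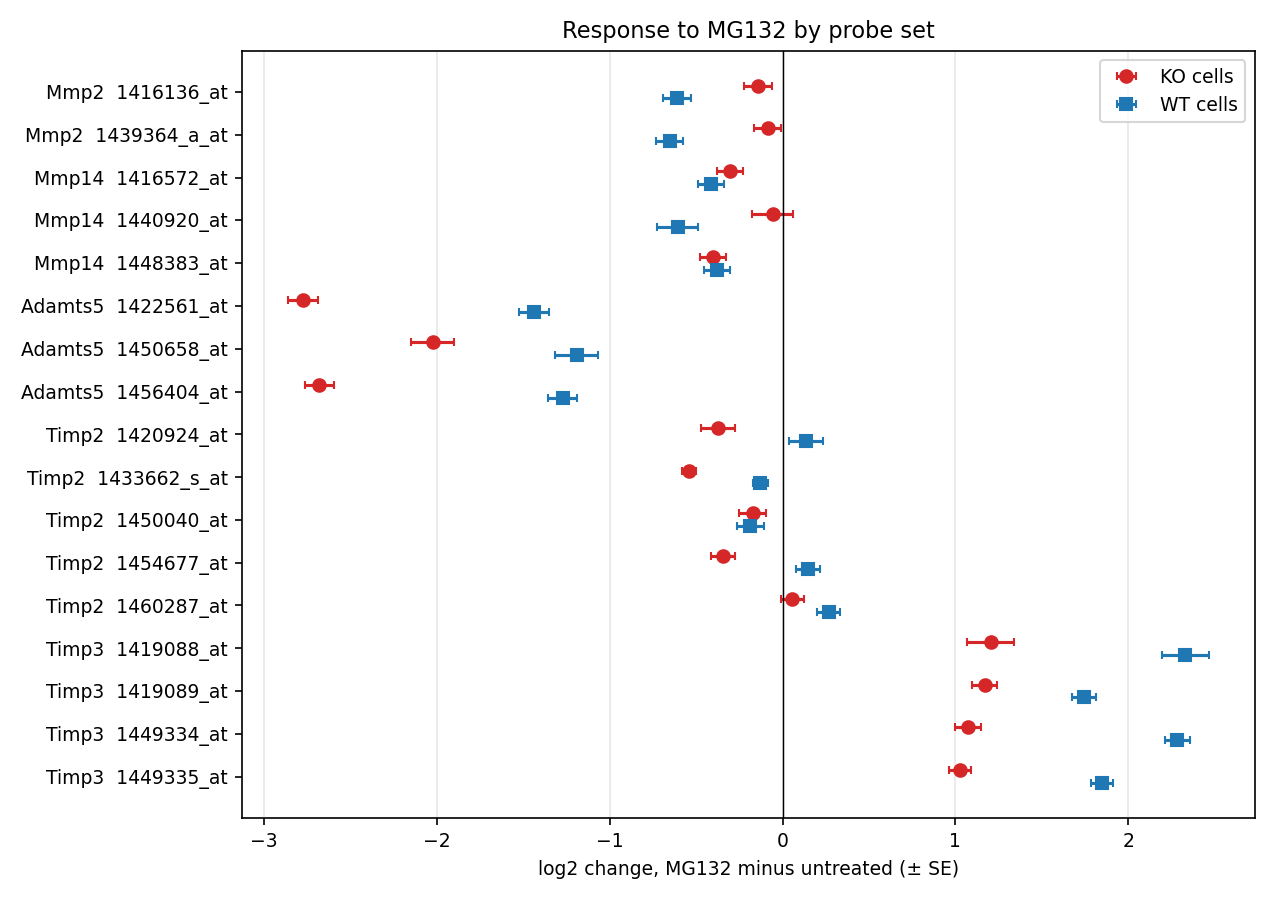
Log2 change with MG132 (horizontal axis, ± SE) for every probe set of the 5 genes with more than 1 probe set past the filter, in KO cells (red circles) and WT cells (blue squares). The probe sets of Timp3 lie between 1.03 and 1.20 in KO cells and between 1.74 and 2.33 in WT cells, those of Adamts5 are all below 0 with KO below WT, and those of Timp2 lie on both sides of 0.

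Of the 9 tested members, 1 was called higher and 3 lower with MG132 in KO cells, where 25.7% of all tested genes were called higher and 36.7% lower. In WT cells 5 were called higher and 4 lower, where 27.1% of all genes were called higher and 36.8% lower. The difference between the responses was called higher in KO cells for 1 member and lower for 4, where 14.1% of all genes were called higher and 14.1% lower. Between the genotypes with MG132, 1 was called higher in KO cells and 7 lower, beside 30.6% and 28.0% of all genes. Between the untreated genotypes, 2 were called higher in KO cells and 3 lower, beside 28.5% and 26.8% of all genes. Since the symbols were listed with these changes known, and Mmp13 and Mmp10 passed the filter through groups where they were high, nothing is read from these counts. The median log2 change of the 9 was -0.14 in KO cells and 0.27 in WT cells with MG132, where all tested genes had medians of -0.07 in each genotype. KO minus WT had a median of -0.26 untreated and -1.29 with MG132 over the members, and 0.01 and 0.02 over all genes. The member medians rest on the same choice of genes and the same filter, so nothing is read from them either.

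**Figure D4:**
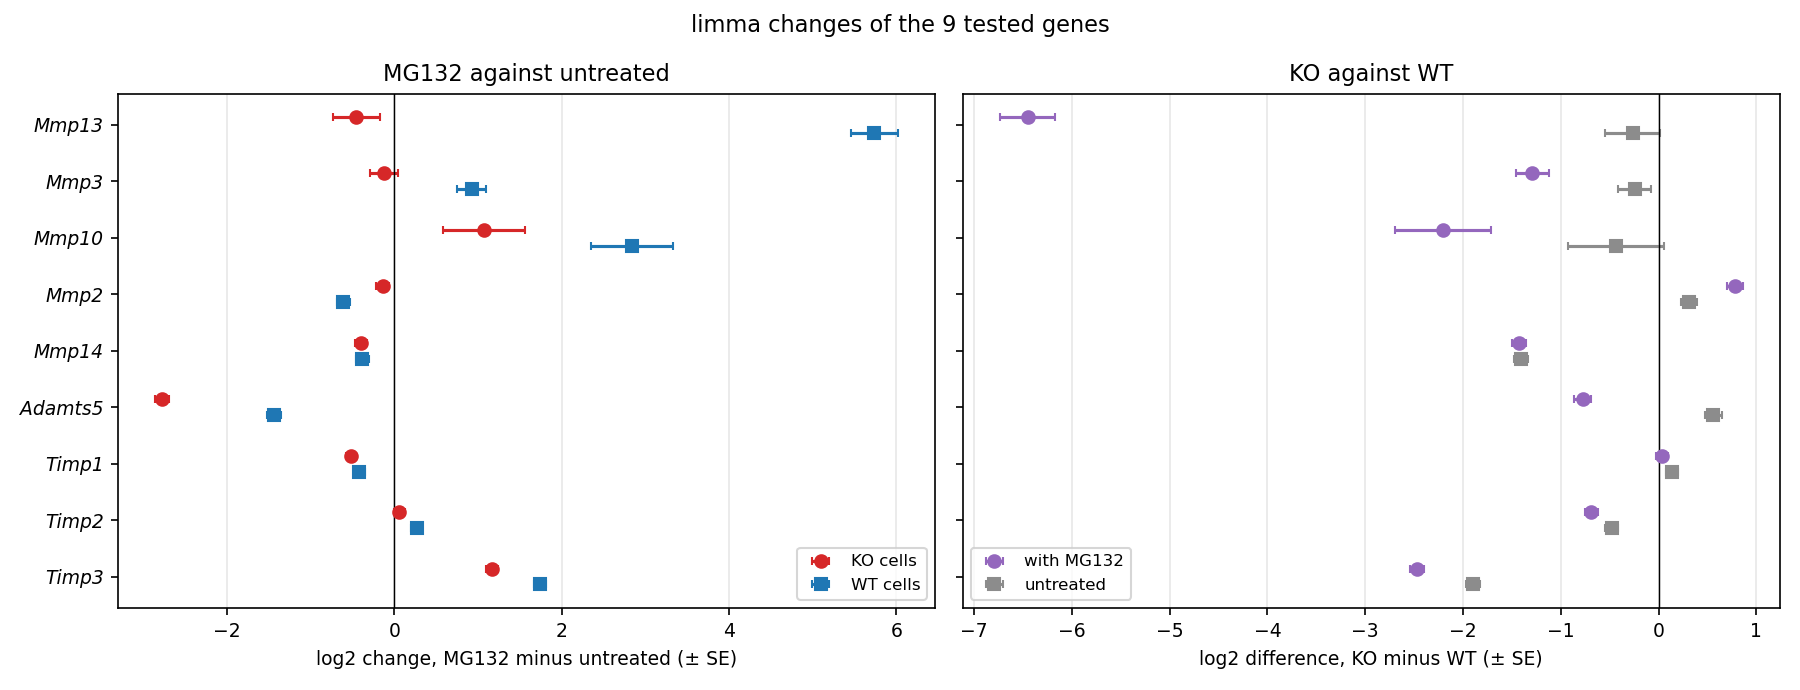
Log2 changes (± SE) of the 9 tested genes: on one panel the response to MG132 in KO and WT cells, on the other the difference KO minus WT with MG132 and untreated. With MG132, KO minus WT is lowest for Mmp13 at -6.45 and highest for Mmp2 at 0.78. Bars of 1 SE are not a test against 0.

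Set side by side, KO minus WT was -6.45, -1.29 and -2.21 with MG132 for Mmp13, Mmp3 and Mmp10, and -0.26, -0.24 and -0.44 untreated, where neither Mmp3 nor Mmp10 was called. Leaving out single arrays moved the untreated value of Mmp13 between -0.43 and -0.048 and that of Mmp10 between -0.83 and -0.078. Mmp14 and Timp2 were called lower in KO cells at both treatments, and Mmp2 higher at both. All KO arrays of Timp3 lay below all WT arrays. Adamts5 was above WT in untreated KO cells and below it with MG132 on its brightest probe set and on 1456404_at. On 1450658_at the untreated KO and WT arrays overlapped. The fibroblast markers Pdgfra, Thy1 and Dcn named above differed between the genotypes as well, while Vim and Fn1 were close. The part of a difference between the cell populations in these values was not tested.

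The wider protease system was described through lists of genes around the members. Called counts in these lists stand beside 25.7% of all tested genes called higher and 36.7% lower in KO cells, and 27.1% and 36.8% in WT cells, and nothing particular to a list is read from them. Of 17 other metalloproteinases, 5 passed the filter. Mmp11, or stromelysin-3, fell by 0.96 in KO cells and by 0.96 in WT cells (SE 0.11 each, limma adjusted p = 1.62e-07 and 1.4e-07). Mmp17 rose in KO cells, by 0.66 (SE 0.24, adjusted p = 0.0212), a call lost without replicate 3 of the untreated or replicate 2 of the treated KO group (adjusted p = 0.0673 and 0.0717). Mmp16, another membrane-anchored enzyme, was higher in KO than in WT cells by 1.58 untreated and 1.57 with MG132 (SE 0.18 each). The list median was -0.05 in KO and -0.19 in WT cells.

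Of 25 other ADAMTS and ADAM proteases, 15 were tested, with 2 higher and 6 lower in KO cells and 5 higher and 8 lower in WT cells. Adamts1, an aggrecanase like Adamts5, moved in opposite directions: it averaged 2123 ± 95.6 units in KO cells with MG132 and 3656 ± 350 in untreated KO cells, against 6046 ± 441 in WT cells with MG132 and 4114 ± 675 in untreated WT cells. It fell by 0.78 in KO cells (SE 0.09, limma adjusted p = 1.89e-07) and rose by 0.56 in WT cells (SE 0.09, adjusted p = 1.16e-05), a difference of -1.34 (SE 0.12, adjusted p = 1.46e-07). Adam8 rose in both genotypes, by 0.83 in KO and 0.75 in WT cells. Adam9 fell in WT cells, by 0.58. Adam17, the main sheddase of membrane-bound cytokines, was lower in KO than in WT cells, at -0.67 untreated and -0.80 with MG132.

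Of 10 further inhibitors and regulators of metalloproteinases, 3 were tested. Reck, a membrane-anchored inhibitor of Mmp2, Mmp9 and Mmp14, fell by 1.15 in KO cells and fell by 0.96 in WT cells with MG132 (SE 0.12 each), and KO minus WT was -1.37 untreated and -1.56 with MG132. The other 2, Pcolce and Pcolce2, are enhancers of procollagen processing rather than inhibitors of these enzymes; Pcolce2 fell by 0.15 in KO and rose by 0.58 in WT cells, and Pcolce fell by 0.16 and by 0.35. In plasminogen activation, which supplies plasmin to activate metalloproteinase zymogens, 5 of 10 listed genes were tested, with 1 higher and 2 lower in KO cells and 2 higher and 3 lower in WT cells. Plat, the tissue plasminogen activator, fell by 1.07 in KO and by 0.66 in WT cells (SE 0.06 each) and was higher in untreated KO than WT cells by 1.73, although the mean over its probe sets gave 0.23 for the WT response (adjusted p = 0.282). Plaur, the urokinase receptor, rose by 0.68 in KO and 0.34 in WT cells (SE 0.08 each), and S100a10 fell by 0.22 in KO and by 0.21 in WT cells. Serpinb2, an inhibitor of plasminogen activators, was higher in untreated KO than WT cells by 2.31 (SE 0.31).

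Among activators and cell surface partners, 12 of 15 were tested, with 2 higher and 7 lower in KO cells and 3 higher and 7 lower in WT cells, and list medians of -0.44 and -0.35. Cav1, the caveola protein that binds Mmp14, fell by 1.93 in KO and by 0.87 in WT cells (SE 0.06 each). Ddr2, a collagen receptor described as an inducer of Mmp13, rose by 0.81 in KO and 0.96 in WT cells. Cd44, a hyaluronan receptor that docks metalloproteinases, was lower in KO than in WT cells with MG132, at -0.66 (SE 0.07). Sdc4 differed between untreated KO and WT cells by 1.60 on its brightest probe set, a suffixed one, and by -1.91 once suffixed probe sets were left out, so it has no settled direction.

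Of 19 listed regulators of metalloproteinase transcription, 16 were tested, with 7 higher and 6 lower in KO cells and 4 higher and 11 lower in WT cells. The list medians were 0.06 and -0.36. Egr1, an immediate early factor, fell by 3.57 in KO cells and fell by 4.93 in WT cells (SE 0.09 each). Cebpb, a partner of CHOP, rose by 0.90 in KO and 0.38 in WT cells (SE 0.08 each), and Ets2 by 0.76 and 1.14. Nfkbia, the NF-kB inhibitor, rose by 0.63 in KO and fell by 0.12 in WT cells. The AP-1 subunits were named after their values were seen. Fos fell by 1.51 in KO and by 0.62 in WT cells (SE 0.11 each), and Fosl1 rose by 0.44 and 0.24 (SE 0.08 each). Jun rose by 0.81 in KO cells and was at -0.02 in WT cells (SE 0.07 each, limma adjusted p = 1.11e-09 and 0.845); in WT cells it was called at 0.19 with arrays centred on their medians and at -0.27 for the mean over its probe sets, so it has no settled direction there. Fosl2 was at 0.10 in KO cells (adjusted p = 0.109) and fell by 0.77 in WT cells, but the mean over its probe sets gave a called 0.36 and -0.013 (adjusted p = 0.885), and median centring a called 0.25 in KO cells. Junb was at 0.02 (adjusted p = 0.844) and fell by 0.70. Jund was at -0.15 in KO cells (adjusted p = 0.26) and fell by 0.35 in WT cells, but the mean over its probe sets gave 0.0040 there.

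Of 16 cytokines and growth factors known to induce metalloproteinases, 10 were tested, with 1 higher and 5 lower in KO cells and 3 higher and 3 lower in WT cells. Ereg, a ligand of the EGF receptor, fell by 1.37 in KO and by 0.54 in WT cells (SE 0.06 each). Hbegf, of the same family, fell by 1.08 in KO and fell by 1.18 in WT cells (SE 0.08 each). Fgf7 fell by 1.58 in KO and by 0.22 in WT cells (SE 0.07 each), and Tgfb2 rose by 0.49 and 0.83 (SE 0.09 each). Of 26 matrix substrates, 20 were tested, with 2 higher and 13 lower in KO cells and 4 higher and 10 lower in WT cells, and list medians of -0.51 and -0.18. Col3a1, a fibrillar collagen, fell by 2.19 in KO and by 1.36 in WT cells (SE 0.07 each), and Col5a1 fell by 0.74 and by 0.31. The adhesion-modulating glycoprotein gene Tnc and the proteoglycan gene Vcan, whose product is a substrate of Adamts5, were higher in untreated KO than WT cells by 2.90 and 2.41 (SE 0.09 and 0.11).

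**Figure D5:**
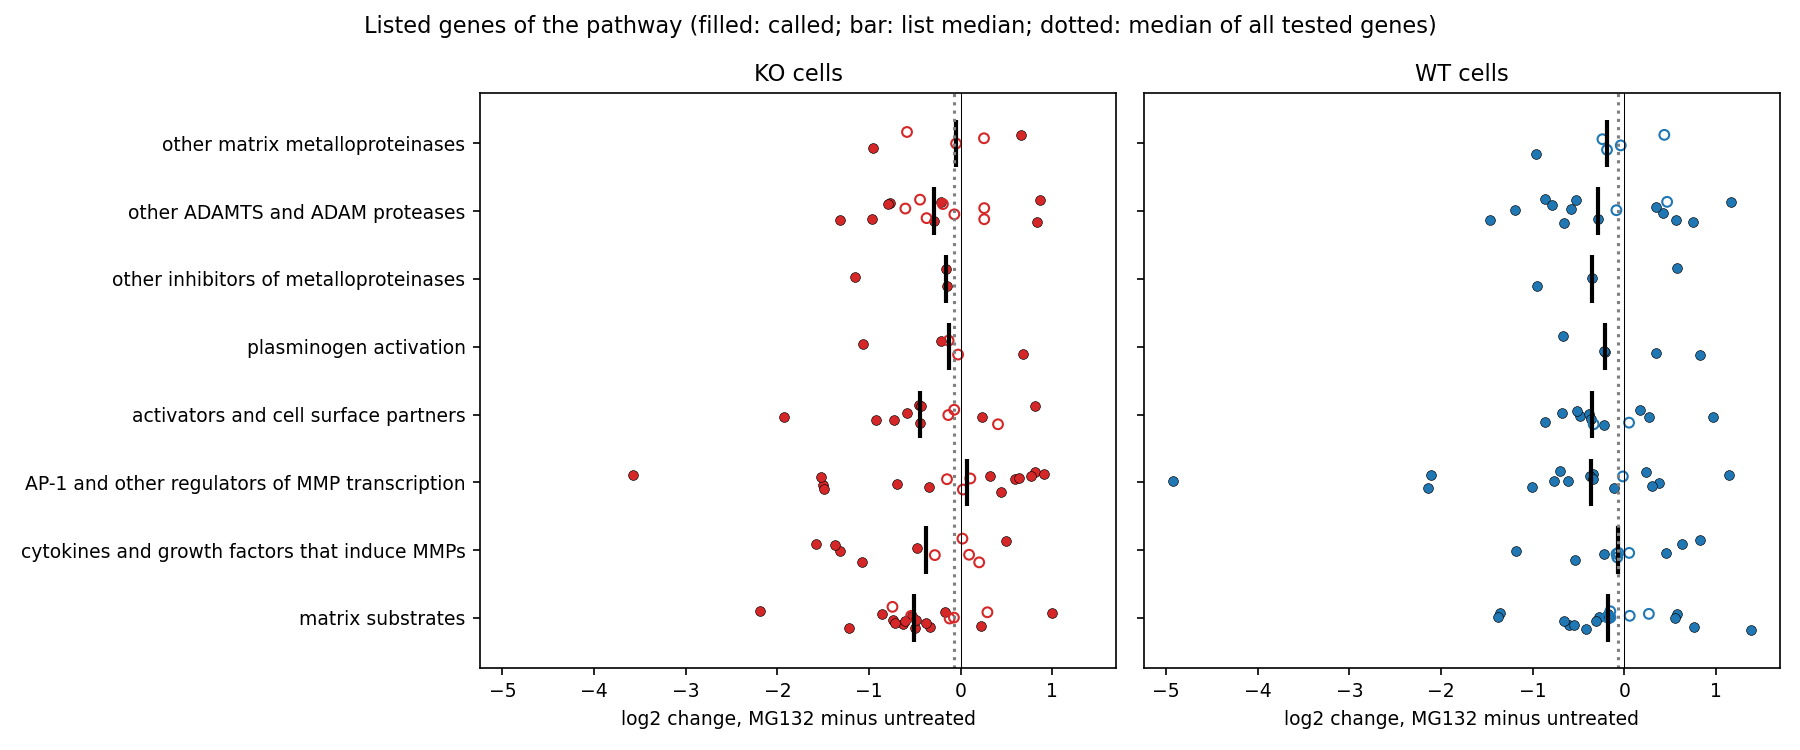
Log2 change with MG132 (horizontal axis, the same in both panels) of the tested genes of 8 lists, in KO and WT cells; filled points were called, open points were not, black bars are list medians and the dotted line is the median of all tested genes. Matrix substrates have a median of -0.51 in KO and -0.18 in WT cells, and the AP-1 list one of 0.06 in KO and -0.36 in WT cells.

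Genes with the most similar pattern were sought for 3 members, Mmp13, Timp3 and Adamts5. Mmp10, with a WT change of 2.84, was not searched. The measure was the root-mean-square difference between log2 profiles over the 16 arrays, each centred on its own mean. For Mmp13, whose own profile had a spread of 2.66, these were Krt16 (0.908), Car6 (1.00), Ddit3 (1.10), Krt25 (1.27) and Cdsn (1.30). Krt16 and Krt25 encode keratins, Cdsn a skin adhesion protein and Car6 a secreted carbonic anhydrase, and their log2 changes in WT cells were 4.76, 3.16, 2.90 and 3.86; these and the next genes were picked for their profiles, so their changes are descriptions. Krt14, a keratin of basal epidermis that was looked at as a marker, gave 63.6 units in KO cells with MG132, 10.4 in untreated KO cells, 471 in WT cells with MG132 and 10.1 in untreated WT cells. Other epithelial markers went another way: Dsp gave 381, 310, 46.7 and 7.95 units in the same order, Krt8 129, 80.8, 99.0 and 44.7, and Krt5 110, 70.3, 78.8 and 72.7. Epithelial cadherin, Cdh1, was above the array median on no array, and the summed signal of 8 epithelial markers ran between 992 and 1129 units in KO cells with MG132, 555 and 837 in untreated KO cells, 974 and 1398 in WT cells with MG132, and 357 and 615 in untreated WT cells. The part of epithelial cells in the Mmp13 signal was not tested.

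For Timp3, with a spread of 1.32, the nearest genes were Plagl1 (0.230), Plcxd2 (0.333), Fbxo2 (0.364), Grem1 (0.366) and Klf4 (0.385). Plagl1, a zinc finger factor, had log2 changes of 1.49 in KO and 1.68 in WT cells (SE 0.07 each), and Klf4, another, 1.87 and 1.01 (SE 0.06 each). Grem1, which encodes a secreted BMP antagonist, had 0.29 in KO and 2.01 in WT cells (SE 0.08 each). For Adamts5, with a spread of 1.11, the nearest were Ehd2 (0.317), Haghl (0.324), Nab2 (0.353), Rhoj (0.354) and Cd248 (0.358). Nab2, a corepressor of Egr1, had -1.93 in KO and -1.70 in WT cells (SE 0.09 each), and Cd248, or endosialin, a surface protein of stromal cells, -2.0 and -1.71 (SE 0.13 each). Such likeness over 4 groups describes these arrays and says nothing of shared control.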

How the data were processed

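Total RNA was prepared with an Affymetrix 3' expression kit and read on mouse arrays, per the labels, and the authors made MAS5 values from them (version: not given in the sources used here). What they deposited are linear signal intensities without detection calls. Each of the 16 arrays has a mean of 1000 once 2% of the values are trimmed from either end, which shows a scaling by the authors. Of 45101 probe sets, 34945 named 1 gene, 9160 named none, 932 several and 64 were controls; names came from the platform annotation, 34741 matched RefSeq by gene ID and 0 symbols changed.

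Signals were analysed as log2(signal + 16). Each gene took the brightest of its own probe sets and was tested where that one exceeded the array median on at least 4 of 16 arrays, which left 11457 genes, and 21 of the 25 member probe sets passed. limma 3.58.1 (R 4.3.3) was fitted to all arrays, a coefficient for each group, with a variance trend in eBayes and 12 residual degrees of freedom, and 5 two-sided contrasts were adjusted by Benjamini-Hochberg over all genes, with a threshold of 0.05. The scripts were tested on simulated data. Values for further probe sets come from a like fit over 21677 probe sets. The precision is limited by 4 arrays per group.

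The members, the pathway lists and the marker lists were chosen with earlier results of these data known. Named from each pathway list were up to 4 genes with the smallest adjusted p in any contrast. The AP-1 subunits were added after their values were seen. Also named were the 5 genes nearest in pattern to each of Mmp13, Timp3 and Adamts5, without unnamed clones. Alternatives changed the constant, the filter, the scaling, the choice of probe set, the variance trend, the arrays in the fit and the replicate block. Replicate numbers were not used to pair the arrays in the reported fit. Deviations of same-numbered arrays correlated between -0.067 and 0.16. Of 48 comparisons of an array with another group, 24 were closest at the same number, where chance gives 12. Whether same-numbered arrays shared a batch was not tested.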

Additional observations from a re-analysis of the deposited data

Results flagged for a closer look

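Single arrays stood apart in 7 of 100 sets of 4 arrays examined, by Dixon's test at the 95% level; chance alone gives about 1 in 20. Mmp3 gave 129 units on replicate 3 of the untreated KO group, where the others gave 91.0 to 97.1. Mmp10 gave 10.5 on replicate 3 of the untreated WT group (others 60.1 to 66.5). On further probe sets, Mmp14 gave 5147 on replicate 1 of the untreated WT group (1416572_at, others 6478 to 6639) and 887 on replicate 3 (1440920_at, others 1058 to 1074). Timp3 on 1419088_at gave 1221 on replicate 3 of the treated KO group (others 1521 to 1526) and 1343 on replicate 1 of the untreated WT group (others 2310.2 to 2506). Adamts5 gave 638 on replicate 2 of the treated KO group (others 535 to 551).

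The response to MG132 differed between KO and WT cells, by the interaction term of the limma fit (KO minus WT, log2), for Mmp3 (-1.05) and Mmp2 (0.47), where 14.1% of all tested genes were called higher and 14.1% lower. The same term was -6.19 for Mmp13, -1.34 for Adamts5 and -0.58 for Timp3; these include a response that was known when the genes were listed and are descriptions. For Mmp3 all 4 treated WT arrays lay above the untreated ones while the KO groups overlapped.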

How the results depend on the processing

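No count of called genes or of called members in both directions together moved by over 1.5 times under any alternative, and 1222 of 1251 recomputed member changes kept their direction and side of the threshold. The 1251 include the large changes of Mmp13, Timp3 and Adamts5 that were known when the genes were listed, and 720 come from leaving out 1 array. Leaving out each array in turn gave 4 to 5 called members in the KO response, 9 in the WT response, 5 to 6 in the difference, 8 in KO against WT cells with MG132 and 5 to 6 in the untreated cells. By direction, the 1 member called higher in the KO response became 3 with arrays centred on their medians, and 2 (with Mmp10) without replicate 3 of the untreated WT, replicate 3 or 4 of the untreated KO or replicate 2 of the treated KO group, and the 1 called higher in the difference became 2 with every probe set fitted. Centring arrays on their medians shifted the all-gene median by 0.14 in the KO and 0.20 in the WT response; calls there were 3993 higher and 3167 lower in KO cells (2942 and 4205 as reported) and 4587 and 2853 in WT cells (3107 and 4221). The difference between the responses then had 1252 higher and 2015 lower calls (1620 and 1615), and KO against WT untreated 3903 and 2491 (3270 and 3071). Under that centring the KO responses of Mmp10 (1.21) and Timp2 (0.20), the difference for Mmp10 (-1.83) and KO against WT untreated for Timp1 (0.21) were called. A constant of 64 also gave a called difference for Mmp10 (-1.53). The mean over probe sets left the WT response of Timp2 at 0.15, not called, and quantile normalisation gave a called Timp2 difference of -0.21, as did leaving out replicate 3 of the untreated WT group (-0.28).

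Directions turned only for values not called as reported, except for Plat, Sdc4 and Jund. Under median centring the KO response was 0.0022 for Mmp2 and 0.019 for Mmp3, and the WT response of Jun 0.19, called; the mean over probe sets called it at -0.27 and left the WT response of Fosl2 at -0.013, not called. Quantile normalisation gave -0.081 for Timp2 in KO cells, 0.064 for the Mmp14 difference and -0.0048 for Timp1 in KO against WT with MG132. The mean over probe sets gave -0.13 for Timp2 in KO cells, 0.21 for the Mmp14 difference, 0.23 for Plat in WT cells, -0.16 for Sdc4 in untreated KO against WT, and 0.085 and 0.0040 for Jund in KO and WT cells; without suffixed probe sets Sdc4 gave -1.91. With single arrays left out, the Mmp14 difference ran between -0.057 and 0.061, Timp1 in KO against WT with MG132 between -0.010 and 0.064, Junb in KO cells between -0.087 and 0.098, and Jun in WT cells between -0.096 and 0.026. Mmp24, lower in untreated KO cells at -0.52 (limma adjusted p = 0.0489), lost its call in most alternatives. Haghl, and the WT responses of Pcolce and S100a10, lost theirs in 1 each. The cause was not tested.

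With the replicate block, 7320 genes were called in the KO and 7445 in the WT response and the member counts were 4 and 9, as without it; it changed no call of a member. The numbers share no batch in the labels, and 24 of 48 comparisons of an array with another group were closest at the same number, where chance gives 12. All 4 pairs of untreated KO and WT arrays correlated at 0.081 to 0.16, not all above 0.1. The fit of only the groups compared does not apply to the difference, which needs all 4. Dim signals limit Mmp13, Mmp9 and Mmp10, where no detection call was used.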
